A study of Mus musculus with 46 samples.

Results

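The genes described here are the interleukins and interleukin receptors, defined as all genes on the array whose annotated symbol begins with Il followed by a digit. Of 10470 genes with a probe set assigned to 1 gene, 41 met this definition, through 58 probe sets, and each gene was read from its probe set with the highest mean over the 46 arrays. The values are log2 expression values, in which a difference of 1 is a doubling of the signal. A gene entered the tests if its value was above 4 in at least 3 arrays, which 31 of the 41 members and 9318 genes in all did. The 10 members below that level were Il1a, Il1f6, Il1f8, Il1f9, Il2ra, Il3ra, Il10, Il11, Il17rd and Il21r, and no difference was tested for them.

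Global mRNA expression was measured in primary mammary tumors of female mice from 8 genetically engineered models, 41 tumors in all, and in normal mammary glands of 5 FVB mice late in pregnancy (FVB pregnant). 3 models are of the basal type. C3TAg (5 tumors) carries the SV40 T/t antigens under the C3(1) promoter in FVB mice, p53-/- (7 tumors) has floxed p53 alleles cut by MMTV-driven cre in transplanted Balb/C gland, and Brca1-/-p53+/- (5 tumors) has floxed Brca1 alleles cut by MMTV-cre on a p53+/- 129B6/FVB background. The other 5 models are of the luminal type, are FVB, and carry an oncogene under the mouse mammary tumor virus promoter: MMTV-Hras (H-Ras, 5 tumors), MMTV-H2N (Her2/neu, 5), MMTV-C-Myc (c-Myc, 4), MMTV-PymT (polyoma middle T, 6) and MMTV-Wnt (Wnt1, 4). The MMTV promoter is also active outside the mammary gland, in salivary and lymphoid tissue. All normal glands, and all models but p53-/- and Brca1-/-p53+/-, were FVB. Strain and genotype therefore cannot be told apart in p53-/- and Brca1-/-p53+/- tumors when these are compared with normal gland or with the other models. In p53-/-, the only transplant model, transplantation cannot be told apart from them either. Virgin gland was not analysed here, so pregnancy is part of every comparison with normal gland.

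Interleukins are secreted signals by which leukocytes, epithelium and stroma act on one another. Members of the IL-1 family, IL-1 beta, IL-18 and IL-33 among them, bind receptors that share the accessory chain IL-1RAP or its relatives and activate NF-kB, and IL-1RN is a natural antagonist that occupies the IL-1 receptor without signalling. IL-4, IL-7, IL-13, IL-15 and IL-6 act through cytokine receptors that activate JAK kinases and STAT transcription factors, and the gp130 chain encoded by Il6st is shared by the whole IL-6 family. IL-17 family ligands bind dimers of IL-17 receptor chains, many of which are expressed by epithelium. In the mammary gland, IL-4 and IL-13 signalling takes part in the differentiation of luminal cells, and signals through gp130 drive involution after weaning.

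10 arrays stood apart by marker genes of other tissues or by loss of epithelial markers. The mean level of 6 luminal epithelial markers was 7.27 and 5.31 in Brca1-/-p53+/- replicates 3 and 4 and 7.32 in MMTV-Wnt replicate 3, against 10.67 or more in all other arrays, and macrophage markers averaged 10.31, 10.99 and 11.17 in these 3 tumors. Brca1-/-p53+/- replicate 2 had adipocyte markers at 12.72, above the 5 normal glands (10.98 to 12.17) and all other tumors (3.05 to 8.49). Genes of salivary secretion averaged 12.94, 13.10, 12.15 and 11.03 in MMTV-Hras replicates 1, 2, 3 and 5, 12.61 in MMTV-PymT replicate 2 and 10.62 in MMTV-Wnt replicate 2, and 6.45 or less elsewhere. Named results that rest on these 4 and 6 arrays are given with and without them. Without the 6 salivary arrays MMTV-Hras kept 1 tumor, replicate 4, which the fit assumed to vary like the other groups. Without the 4 arrays of low epithelial or high fat markers Brca1-/-p53+/- kept replicates 1 and 5 alone, so its results in that setting rest on these tumors. The mean correlation of an array with the others of its group was 0.785 in Brca1-/-p53+/-, 0.846 in MMTV-Wnt and 0.885 or more in the other groups.

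To show the regulatory sequence of the members on which the results turn, the 250 bases before the RefSeq transcription start are given 5′ to 3′ on the strand of the gene (build GRCm38.p6), in lower case with 1 motif in capitals. Il13ra1 and Il1r1 hold 1 form of the NF-kB motif, GGGNNTTCC, which begins 202 and 232 bases before the start and lies on the opposite strand in Il1r1. Of 8 members with a promoter that were higher in basal-type tumors, only these 2 held that form, and other forms of the NF-kB motif were not searched. Il1b holds a TATA box, TATAAA, 31 bases before its start, Il1rn holds an AP-1 motif, TGANTCA, at 141 bases, and Il15ra holds an IRF motif, GAAANNGAA, on the opposite strand at 149 bases.
Il13ra1 (chrX:36111858-36112107, plus strand): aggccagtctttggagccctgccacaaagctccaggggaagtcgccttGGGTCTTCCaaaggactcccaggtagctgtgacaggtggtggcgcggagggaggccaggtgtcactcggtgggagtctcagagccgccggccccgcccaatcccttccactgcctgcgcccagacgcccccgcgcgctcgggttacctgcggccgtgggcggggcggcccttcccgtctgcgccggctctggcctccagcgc
Il1r1 (chr1:40266336-40266585, plus strand): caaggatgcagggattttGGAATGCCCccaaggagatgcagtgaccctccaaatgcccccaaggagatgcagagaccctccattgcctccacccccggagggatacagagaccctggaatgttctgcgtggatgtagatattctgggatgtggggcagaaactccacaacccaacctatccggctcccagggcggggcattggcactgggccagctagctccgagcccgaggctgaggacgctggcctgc
Il1b (chr2:129371140-129371389, minus strand): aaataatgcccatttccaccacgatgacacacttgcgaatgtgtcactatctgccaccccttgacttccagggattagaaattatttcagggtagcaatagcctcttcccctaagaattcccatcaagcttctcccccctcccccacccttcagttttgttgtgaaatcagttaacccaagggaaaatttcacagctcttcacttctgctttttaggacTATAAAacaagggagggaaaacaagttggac
Il1rn (chr2:24336610-24336859, plus strand): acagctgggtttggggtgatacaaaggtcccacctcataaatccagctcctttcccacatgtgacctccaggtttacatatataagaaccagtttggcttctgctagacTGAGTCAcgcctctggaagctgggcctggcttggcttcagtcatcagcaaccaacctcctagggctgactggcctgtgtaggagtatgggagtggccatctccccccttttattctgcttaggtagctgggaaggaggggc
Il15ra (chr2:11705043-11705292, plus strand): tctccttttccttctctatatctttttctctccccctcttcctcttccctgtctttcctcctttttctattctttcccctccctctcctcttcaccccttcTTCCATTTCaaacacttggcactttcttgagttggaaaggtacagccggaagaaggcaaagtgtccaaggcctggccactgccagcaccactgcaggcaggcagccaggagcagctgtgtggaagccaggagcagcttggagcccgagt
Both strands were searched, and a motif could overlap another. Of 32 members with a promoter in the table used, 3 held the NF-kB motif, against 4.98% of 32851 promoters, 1 held the IRF motif (7.13%), 9 held the AP-1 motif (6.75%) and 6 held the TATA box (12.4%). The 32 members had 41 promoters, and a member counted if any of its promoters held the motif. The percentages are of single promoters, so the measures are unlike. A match is a description of these letters and not of binding.

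Expression of most members varied among the groups. By the moderated F test of limma, 23 of 31 tested members differed among the 9 groups, against 83.3% of all genes tested, and 22 of 31 differed among the 8 tumor models, against 74.5%. The shares among the members were thus not above those among all genes. The 7 members that passed the filter on 3 or 4 arrays only, Il6, Il12b, Il13ra2, Il17a, Il17rb, Il18rap and Il1f5, were near the bottom of the scale elsewhere and could pass only by differing between arrays. Il7 likewise passed on 6 arrays, none of them a luminal-type tumor, and Il23a on 9 arrays, all of them tumors of the 3 models in which it was then called higher.

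Between the 41 tumors and the normal glands, 5 members were higher in tumors, against 24.2% of all genes, and 6 were lower, against 17.1%. Those that rose were Il13ra1 and, of the IL-1 family, Il1rn, Il1rap, Il1b and Il18, while Il18r1 of the same family fell. Those that fell were Il15, its receptor chain Il15ra, the IL-6 receptor chains Il6ra and Il6st, Il18r1 and Il4ra. The median difference was 0.32 over the members and 0.20 over all genes, and the latter moved to −0.01 when each array was centred on its median. The normal gland also differed in its tissue content. All 7 adipocyte markers and all 5 milk genes were lower in tumors (medians −6.28 and −7.74), 2 of 7 pan-leukocyte markers and 5 of 13 macrophage markers were higher, and 1 macrophage marker was lower. The summed level of the 7 adipocyte markers was 76.9 to 85.2 in normal gland, 21.3 to 54.0 over the 7 models other than Brca1-/-p53+/-, and 25.2 through a median of 28.4 to 89.1 in that model. The part of this tissue in the members' differences was not tested. Whether a lower signal came from fewer cells of a type or from less RNA per cell cannot be told apart in these bulk samples.

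Counted model by model against normal gland, the p53-/- tumors had 8 members higher and 5 lower (26.2% and 16.6% of all genes), and the Brca1-/-p53+/- tumors had 8 higher and 4 lower (16% and 16.2%). C3TAg tumors had 6 higher and 4 lower (29.5% and 18.5%), and MMTV-Hras tumors 6 higher and 5 lower (14% and 14%). MMTV-H2N had 4 and 4 (22.3% and 12.7%), MMTV-C-Myc 2 and 4 (17.2% and 14.6%), MMTV-PymT 4 and 7 (20.3% and 12.3%), and MMTV-Wnt 3 and 4 (14.5% and 13.2%). In all, 25 of 31 members differed from normal gland in at least 1 model, and Il15 was the 1 member that did so in all 8. The matching shares of all genes were not counted, so neither count can be read as particular to the members. The counts for some models moved with single arrays. The 8 higher in Brca1-/-p53+/- became 4 without its replicate 3 and 3 without its replicate 4, and the 8 in p53-/- became 5 without its replicate 4 and 4 without FVB pregnant replicate 2. The 7 lower in MMTV-PymT became 4 without its replicate 3 or without FVB pregnant replicate 4, the 4 lower in MMTV-H2N became 2 without FVB pregnant replicate 4, and the 3 higher in MMTV-Wnt became 5 without its replicate 2. The 2 higher in MMTV-C-Myc became 1 without its replicate 1 or 4, or without FVB pregnant replicate 1, 2, 3 or 5. Without the 6 salivary arrays, 1 MMTV-Hras tumor was left. Without the 4 arrays of low epithelial or high fat markers, 5 members were higher and 2 lower in Brca1-/-p53+/-, of which replicates 1 and 5 were left. The shares of all genes were not counted in that setting.

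**Figure D1:**
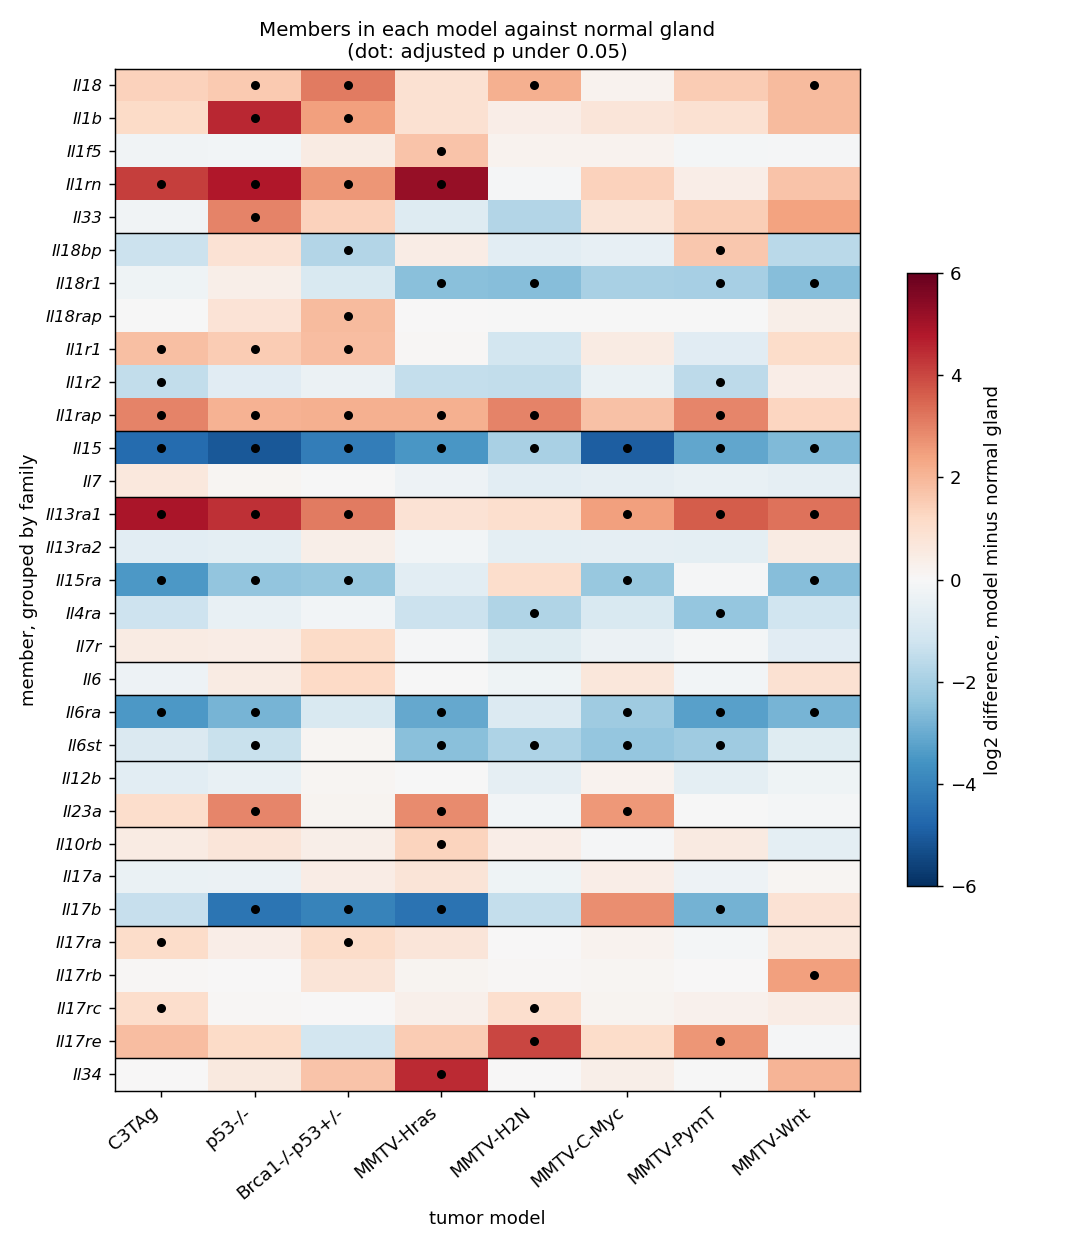
Log2 difference between each tumor model (columns) and the 5 normal glands for the 31 tested members (rows, grouped by family), red for higher and blue for lower in the model, with a dot where the adjusted p was under 0.05. The Il15 row is blue with a dot in all 8 models, the Il13ra1 row is red with a dot in 6, and the Il1rn row is darkest in MMTV-Hras, p53-/- and C3TAg.

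Among the IL-1 family ligands, Il1b, the main secreted form of IL-1, was highest in the p53-/- model. The 5 normal glands had Il1b values of 4.00, 4.07, 4.00, 4.79 and 4.26, and the 7 p53-/- tumors ran from 6.94 through a median of 8.61 to 10.89. Brca1-/-p53+/- tumors had 7.62, 4.80, 7.27, 9.21 and 4.53. The p53-/- tumors did not overlap the normal glands, and 3 of 5 Brca1-/-p53+/- tumors were clearly above them. C3TAg tumors had 5.46, 4.80, 4.88, 4.74 and 7.01, and MMTV-Hras tumors 7.33, 4.80, 4.49, 4.52 and 4.51. MMTV-H2N had 4.56, 4.25, 4.62, 4.27 and 5.48, MMTV-C-Myc 4.81, 4.80, 5.34 and 4.83, and MMTV-Wnt 4.79, 4.55, 9.93 and 5.30. MMTV-PymT tumors ran from 4.75 through 5.01 to 5.97. In the luminal-type models, Il1b was thus near the normal level in most tumors, apart from MMTV-Wnt replicate 3, which lacked epithelial markers, and MMTV-Hras replicate 1. Il1b was 9.98-fold higher in p53-/- than in the other 7 models (3.32 ± 0.50 SE on the log2 scale, adjusted p = 9.43e-06). Over all tumors it was 3.09-fold higher than in normal gland (1.63 ± 0.57 SE, adjusted p = 0.0203), with 28 of 41 tumors above every normal gland. That difference was 1.57 without FVB pregnant replicate 1 or replicate 3 (adjusted p = 0.0519 and 0.0531) and 1.00 with FVB arrays alone (adjusted p = 0.108).

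Il1rn, the antagonist of IL-1, was listed low in normal gland and high in the basal-type models and in MMTV-Hras. The normal glands had values of 2.89, 3.01, 2.59, 2.43 and 2.55. C3TAg tumors had 6.65, 7.43, 7.35, 6.94 and 5.84, and p53-/- tumors ran from 4.93 through 7.52 to 9.44. Every tumor of these 2 models was above every normal gland. Brca1-/-p53+/- tumors had 6.94, 3.61, 5.71, 7.49 and 3.00, and MMTV-Hras tumors 6.84, 9.21, 9.32, 2.63 and 11.63. The 4 high MMTV-Hras tumors were the 4 salivary arrays of that model, in which salivary secretory genes averaged 11.03 or more. In the low one, replicate 4, these genes averaged 6.21. Of the other salivary arrays, MMTV-PymT replicate 2 had an Il1rn value of 2.97 and MMTV-Wnt replicate 2 had 4.63. MMTV-H2N tumors had 2.56, 2.50, 2.51, 2.50 and 2.97, and MMTV-PymT tumors ran from 2.95 through 3.00 to 3.64. MMTV-C-Myc had 6.66, 3.06, 3.30 and 3.19, and MMTV-Wnt 2.61, 4.63, 7.33 and 2.99. MMTV-H2N and MMTV-PymT tumors therefore stayed within 1 log2 unit of the normal glands. The highest normal gland was at 3.01, and Il1rn was above 4 in 22 arrays, all of them tumors. Some tumors counted as above every normal gland were thus near the bottom of the scale. Over all tumors Il1rn was 5.76-fold higher than in normal gland (2.53 ± 0.75 SE, adjusted p = 0.00611), with 29 of 41 tumors above every normal gland, and the difference was 1.86 (adjusted p = 0.0145) without the 6 salivary arrays.

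Against the other 7 models, Il1rn was 6.05-fold higher in p53-/- (adjusted p = 0.00511) and 8.53-fold higher in MMTV-Hras (adjusted p = 0.00265), and it was 7.91-fold lower in MMTV-H2N (adjusted p = 0.00335) and 5.38-fold lower in MMTV-PymT (adjusted p = 0.0138). Without the 6 arrays with salivary secretory genes, MMTV-Hras kept 1 tumor and the difference turned to −2.20 (adjusted p = 0.444), while that of MMTV-PymT was −1.63 (adjusted p = 0.103). Probe sets for Il1rn did not act alike: the other 2 gave tumor differences of 0.97 and 0.69 (adjusted p = 0.203 and 0.380).

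Il18, which induces interferon gamma in lymphocytes, was higher in tumors by 3.02-fold (1.60 ± 0.52 SE, adjusted p = 0.0128). Its values were 6.16, 4.10, 4.53, 4.49 and 6.09 in normal gland and 8.46, 7.05, 8.68, 10.30 and 6.49 in Brca1-/-p53+/-, the model with the highest mean. These 2 groups did not overlap. MMTV-H2N tumors had 8.82, 7.22, 7.35, 6.54 and 6.10, C3TAg tumors 5.53, 7.78, 7.18, 5.28 and 6.42, and MMTV-Hras tumors 7.12, 6.17, 5.79, 4.58 and 6.21. MMTV-C-Myc had 5.14, 4.13, 7.54 and 4.27, and MMTV-Wnt 6.32, 6.12, 9.39 and 6.08. In MMTV-C-Myc, 3 of 4 tumors lay within the normal range. The p53-/- tumors ran from 5.94 through 6.46 to 8.06, and MMTV-PymT from 5.61 through 6.65 to 7.96. In all, 27 of 41 tumors were above every normal gland, and the difference was 1.35 (adjusted p = 0.0640) without FVB pregnant replicate 2.

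Il33, an alarmin of epithelial and stromal nuclei, did not pass the test over all tumors (0.79, adjusted p = 0.473) but spread over most of the scale. Normal glands had 6.56, 4.32, 6.59, 5.31 and 4.89, and MMTV-H2N tumors had 3.22, 3.50, 3.53, 4.44 and 4.28, with 4 of 5 below every normal gland. The p53-/- tumors ran from 5.74 through 7.99 to 12.07, MMTV-PymT from 3.90 through 7.66 to 8.88. C3TAg tumors had 3.84, 5.45, 5.97, 6.94 and 4.49, Brca1-/-p53+/- tumors 8.88, 6.06, 6.00, 7.61 and 6.03, and MMTV-Hras tumors 3.59, 4.11, 4.85, 4.85 and 6.43. Tumors of the same model also differed widely in the last 2 models, as they did in p53-/-, with 4.20, 9.74, 6.79 and 4.41 in MMTV-C-Myc and 8.01, 3.44, 11.43 and 8.86 in MMTV-Wnt. Il33 was higher in p53-/- than in normal gland (2.99 ± 1.03 SE, adjusted p = 0.0174), but the call was lost without p53-/- replicate 4 (2.40, adjusted p = 0.0531) or FVB pregnant replicate 2 (2.68, adjusted p = 0.0515). It was 7.41-fold lower in MMTV-H2N than in the other 7 models (adjusted p = 0.0101). The remaining tested ligand, Il1f5, which encodes an antagonist of the IL-36 receptor, was above 4 in Brca1-/-p53+/- replicate 2 (5.14) and MMTV-Hras replicates 1 and 3 (5.13 and 4.48). It was higher in MMTV-Hras than in normal gland (1.73 ± 0.35 SE, adjusted p = 0.000238), and the 1 tumor left without the salivary arrays, at 3.03, gave 0.69 (adjusted p = 0.528).

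**Figure D2:**
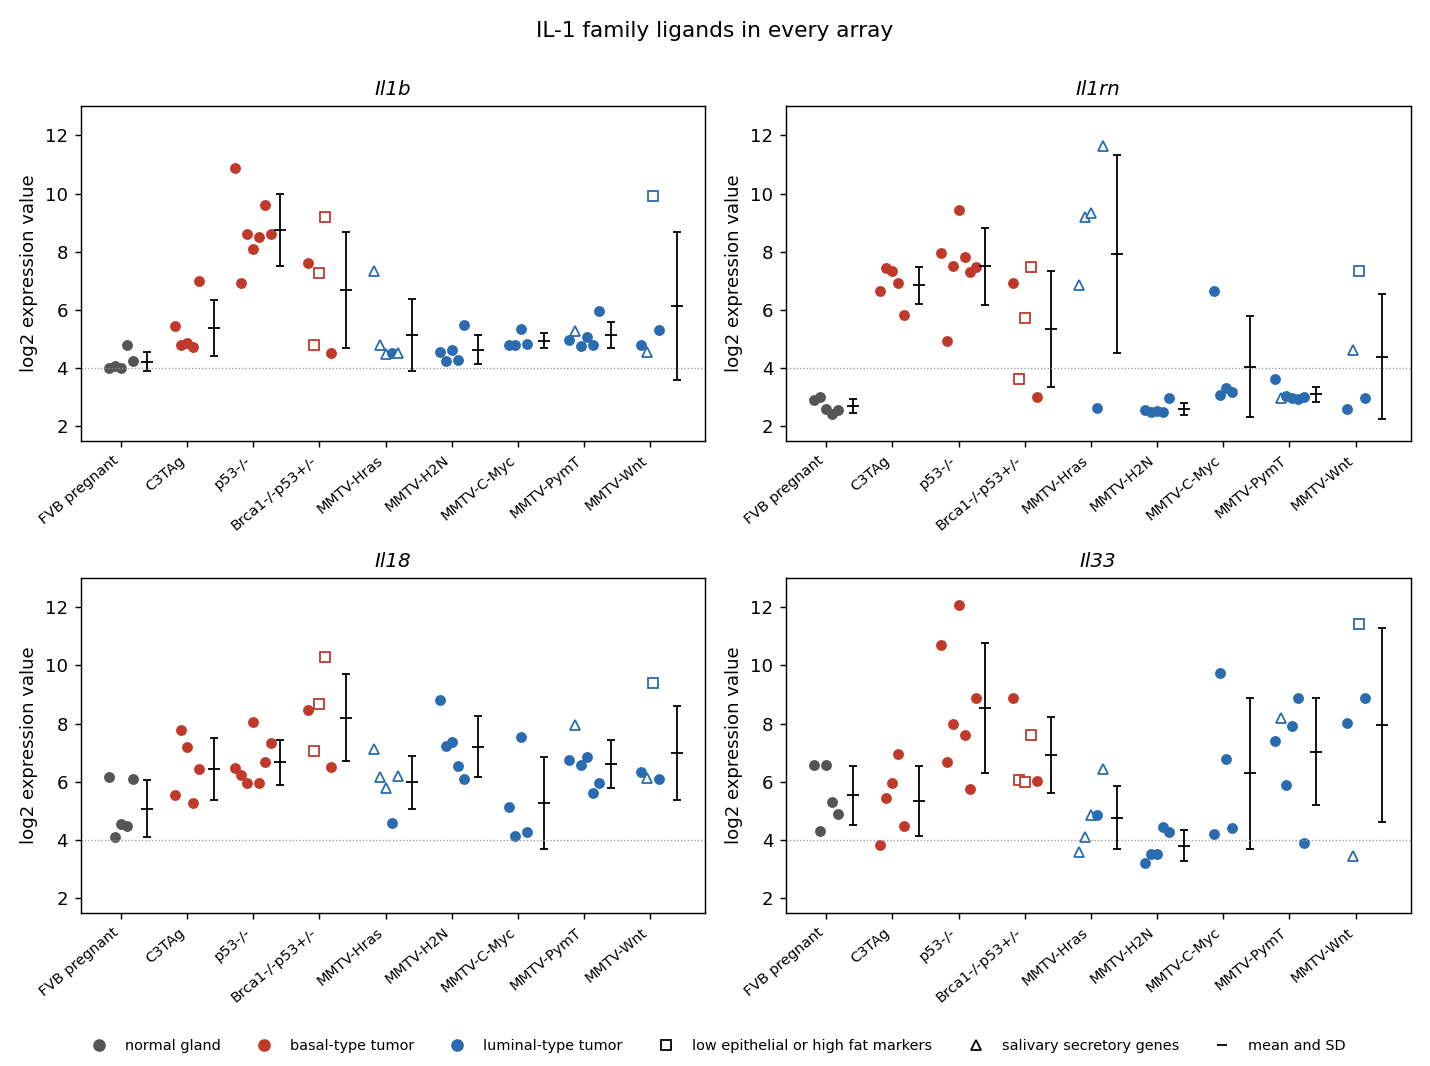
Log2 expression values (vertical axis) of Il1b, Il1rn, Il18 and Il33 in each of the 46 arrays by group, with bars for the mean and SD of each group, open squares for the 4 arrays with low epithelial or high fat markers, open triangles for the 6 arrays with salivary secretory genes, and a dotted line at the filter level of 4. The p53-/- points lie at 6.94 and above for Il1b, and the 4 MMTV-Hras triangles lie at 6.84 and above for Il1rn while the circle is at 2.63.

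Of the IL-1 family receptors, the accessory chain Il1rap rose most widely and the signalling receptor Il1r1 rose in the basal-type models. Il1rap was 4.88-fold higher in tumors than in normal gland (2.29 ± 0.62 SE, adjusted p = 0.00298), with 30 of 41 tumors above every normal gland, and was called higher in 6 of 8 models (3 to 6 over the alternatives tried). Its other 2 probe sets gave 1.08 (adjusted p = 0.113) and 1.58 (adjusted p = 0.0287). Il1r1 did not pass over all tumors (0.63, adjusted p = 0.249) but was higher than normal in C3TAg (1.79, adjusted p = 0.00981), p53-/- (1.54, adjusted p = 0.0183) and Brca1-/-p53+/- (1.86, adjusted p = 0.0123). The p53-/- call was lost without its replicate 4 (1.18, adjusted p = 0.0607), without FVB pregnant replicate 2 (1.36, adjusted p = 0.0571), after quantile normalization or median centring (1.21 and 1.19, adjusted p = 0.0700 and 0.0770) and with the replicate number as a block (1.32, adjusted p = 0.0550). Median centring gave 1.37 in C3TAg (adjusted p = 0.0536), and leaving out the 4 arrays of low epithelial or high fat markers gave 1.82 in Brca1-/-p53+/- (adjusted p = 0.0838). The 5 C3TAg tumors had Il1r1 values of 8.31, 8.0, 7.63, 7.12 and 8.67, all above the normal glands (6.84, 5.43, 6.16, 6.16 and 6.17). MMTV-H2N tumors, at 4.59, 5.45, 5.33, 4.78 and 5.04, and MMTV-PymT tumors, at 4.80 through 5.49 to 5.99, had the lowest group means.

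Against the other 7 models, Il1r1 was lower in MMTV-PymT (−1.48 ± 0.40 SE, adjusted p = 0.0101) and higher in C3TAg (1.32 ± 0.44 SE, adjusted p = 0.0195). The C3TAg difference was 1.23 without C3TAg replicate 1 and 1.14 without replicate 5 (adjusted p = 0.0629 and 0.0804), and 1.05 and 1.07 after quantile normalization and median centring (adjusted p = 0.0713 and 0.0664). The decoy receptor Il1r2 was lower than normal in C3TAg (−1.50, adjusted p = 0.0372) and MMTV-PymT (−1.55, adjusted p = 0.0352). The C3TAg call was lost without any 1 of its 5 tumors or FVB pregnant replicate 1, 3 or 4 (−1.51 to −1.17, adjusted p = 0.0539 to 0.126), and the MMTV-PymT call without its replicate 3 or the same normal glands (−1.47 to −1.22, adjusted p = 0.0662 to 0.125).

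The IL-18 receptor chain Il18r1 was 2.92-fold lower in tumors than in normal gland (−1.54 ± 0.62 SE, adjusted p = 0.0434). Normal glands had 5.38, 3.93, 2.40, 6.08 and 5.94. All MMTV-H2N, MMTV-Hras and MMTV-Wnt tumors were at 2.37 or less, below every normal gland, while the p53-/- tumors ran from 2.18 through 5.54 to 8.12 and overlapped the normal range. The call rested on few arrays, with −1.39, −1.21 and −1.25 without FVB pregnant replicates 1, 4 and 5 (adjusted p = 0.120, 0.168 and 0.152) and −1.52 without MMTV-C-Myc replicate 3 (adjusted p = 0.0507). It was also lost without the 4 arrays of low epithelial or high fat markers (−1.37, adjusted p = 0.0728) and without the 6 salivary arrays (−1.58, adjusted p = 0.0646).

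Il18bp, a secreted inhibitor that binds IL-18, was highest in MMTV-PymT. Tumors of that model ran from 6.06 through 6.75 to 9.22 and the normal glands had 4.34, 4.81, 5.79, 6.48 and 5.62, so the groups overlapped at their edges. The p53-/- tumors ran from 4.83 through 6.25 to 7.59, and MMTV-Hras had 4.81, 4.28, 4.77, 8.10 and 7.23. Lower values were measured in C3TAg (4.51, 3.27, 4.21, 2.99 and 5.61), Brca1-/-p53+/- (2.76, 3.01, 4.82, 2.80 and 4.80) and MMTV-Wnt (3.17, 4.24, 4.46 and 3.35). MMTV-H2N (4.25, 5.45, 4.73, 4.61 and 4.85) and MMTV-C-Myc (6.38, 4.23, 4.35 and 4.81) lay between. Il18bp was 4.82-fold higher in MMTV-PymT than in the other 7 models (2.27 ± 0.45 SE, adjusted p = 0.000621), and lower than normal gland in Brca1-/-p53+/- (−1.77 ± 0.64 SE, adjusted p = 0.0303). The latter call was lost without Brca1-/-p53+/- replicate 1, 2 or 4 or FVB pregnant replicate 3, 4 or 5 (−1.72 to −1.50, adjusted p = 0.0538 to 0.0884) and without the 4 arrays of low epithelial or high fat markers (−1.63, adjusted p = 0.180). Il18rap, which encodes the accessory chain of the IL-18 receptor, was above 4 only in Brca1-/-p53+/- replicates 3 and 4 (5.36 and 8.40) and p53-/- replicates 1 and 6 (4.60 and 5.33). The 3.39-fold higher mean of Brca1-/-p53+/- (adjusted p = 0.0153) rested on the 2 tumors that lacked epithelial markers. It was 1.43 on the log2 scale without replicate 3, 0.67 without replicate 4 (adjusted p = 0.0728 and 0.273) and −0.11 without the 4 arrays of low epithelial or high fat markers (adjusted p = 0.948).

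IL-15, a survival signal for NK cells and memory T cells that is presented on its receptor chain IL-15RA, was lower than normal in every model with all arrays. Normal glands had Il15 values of 8.97, 9.22, 7.31, 11.19 and 9.51. C3TAg tumors had 4.62, 5.12, 4.98, 3.43 and 4.98, p53-/- tumors ran from 3.45 through 3.92 to 5.84, and MMTV-C-Myc tumors had 3.55, 4.01, 4.58 and 4.99. None of these 3 models overlapped the normal glands. Brca1-/-p53+/- tumors had 3.87, 4.28, 5.89, 7.71 and 3.72, and MMTV-Hras tumors 3.90, 4.50, 6.33, 7.83 and 6.18. MMTV-Wnt tumors had 6.20, 6.81, 6.31 and 6.99, MMTV-PymT ran from 4.07 through 6.18 to 7.81, and MMTV-H2N, the highest of the tumor groups, had 8.14, 7.10, 7.12, 7.38 and 6.70. Only FVB pregnant replicate 3, at 7.31, lay within the range of the tumors, and 36 of 41 tumors were below every normal gland. Il15 was 13.5-fold lower in tumors (−3.76 ± 0.52 SE, adjusted p = 2.43e-07), and the difference from normal gland ran from −5.09 in p53-/- to −1.95 in MMTV-H2N (adjusted p = 0.0252). The MMTV-H2N call was lost without its replicate 5 (−1.81, adjusted p = 0.0591) or FVB pregnant replicate 4 (−1.46, adjusted p = 0.110), and the MMTV-Hras tumor left without the salivary arrays gave −1.41 (adjusted p = 0.502). Over the alternatives tried, 7 or 8 of the 8 models were called. Among models, Il15 was lower in p53-/- than in the other 7 (−1.52 ± 0.46 SE, adjusted p = 0.0180), or −1.43 without p53-/- replicate 1 (adjusted p = 0.0512).

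Il15ra followed its ligand in part, and was called lower than normal in 5 models. Normal glands had Il15ra values of 5.43, 7.16, 6.88, 6.01 and 4.16. All C3TAg tumors were near the bottom of the scale (2.34, 2.43, 2.55, 2.55 and 2.54), and p53-/- tumors ran from 2.43 through 3.03 to 4.98. Brca1-/-p53+/- had 4.90, 4.95, 2.65, 3.02 and 2.67, MMTV-C-Myc 3.37, 3.09, 2.68 and 5.50, and MMTV-Wnt 2.15, 4.87, 3.54 and 3.01. By contrast, MMTV-H2N tumors (6.06, 6.90, 7.22, 7.62 and 7.08) and MMTV-PymT tumors (3.62 through 6.07 to 6.98) lay mostly in the normal range, with 2 MMTV-H2N tumors above it and 1 MMTV-PymT tumor below. MMTV-Hras tumors spread from one level to the other (5.25, 3.04, 4.34, 7.06 and 6.72). Over all tumors Il15ra was 2.98-fold lower (−1.57 ± 0.52 SE, adjusted p = 0.0141). That call was lost without FVB pregnant replicate 2 (−1.27, adjusted p = 0.0826) or 3 (−1.34, adjusted p = 0.0698).

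Against the other 7 models, Il15ra was 7.95-fold higher in MMTV-H2N (2.99 ± 0.53 SE, adjusted p = 5.1e-05) and 4.41-fold lower in C3TAg (adjusted p = 0.00191). It was higher by 1.71 in MMTV-PymT (adjusted p = 0.0131), where it was 1.57 and 1.48 without replicates 2 and 3 (adjusted p = 0.0518 and 0.0609) and 1.38 without the 6 salivary arrays (adjusted p = 0.0817).

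Il13ra1 pairs with the chain encoded by Il4ra to form a receptor for IL-13 and IL-4, and it had the largest rise of any member over all tumors. Normal glands had Il13ra1 values of 6.95, 5.44, 4.22, 4.46 and 4.77. C3TAg tumors had 9.63, 10.55, 10.42, 9.80 and 9.96, p53-/- tumors ran from 8.82 through 9.71 to 10.31, and Brca1-/-p53+/- had 9.45, 5.53, 8.80, 9.53 and 8.12. In Brca1-/-p53+/- the low value was that of replicate 2, which had high adipocyte markers. MMTV-PymT ran from 8.39 through 8.76 to 9.38, MMTV-Wnt had 7.88, 7.78, 9.23 and 8.81, and MMTV-C-Myc had 8.96, 7.78, 8.32 and 5.38. MMTV-Hras (5.91, 3.99, 6.45, 5.67 and 8.13) and MMTV-H2N (7.41, 5.98, 5.44, 5.71 and 6.25) overlapped the normal glands. Il13ra1 was 7.74-fold higher in tumors (2.95 ± 0.47 SE, adjusted p = 3.41e-06), with 31 of 41 tumors above every normal gland, and the number of models in which it was called higher was 6 under every alternative tried. All 4 of its probe sets were higher in tumors and in basal-type tumors. It was 4.70-fold higher in C3TAg than in the other 7 models (adjusted p = 0.000432) and 5.23-fold lower in MMTV-Hras (adjusted p = 0.000342). Without the 6 salivary arrays the MMTV-Hras difference was −2.76 for the 1 tumor left (adjusted p = 0.134), no smaller than with all arrays.

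Il4ra moved the other way, 2.26-fold lower in tumors (−1.18 ± 0.47 SE, adjusted p = 0.0419). Normal glands had 8.29, 7.75, 7.71, 9.61 and 8.46, and 30 of 41 tumors were below them all, while MMTV-Wnt replicate 3 (10.10) and p53-/- replicate 1 (9.64) were above. The difference was −1.20, −0.86 and −1.15 without FVB pregnant replicates 1, 4 and 5 (adjusted p = 0.0743, 0.192 and 0.0804) and −1.08 without the 6 salivary arrays (adjusted p = 0.0665). By model it was called in MMTV-H2N (−1.81, or −1.50 with an adjusted p = 0.0769 without FVB pregnant replicate 4) and MMTV-PymT (−2.30). Il7 and its receptor Il7r, which support lymphocyte precursors, passed the test against normal gland in none of the 8 models. Il13ra2, a decoy for IL-13, reached 5.51 in MMTV-Wnt replicate 3 and 4.91 in FVB pregnant replicate 1 and was 4.07 or less elsewhere.

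In the IL-6 family, both receptor chains fell and the ligand itself was rarely measured above 4. Il6ra encodes the chain that binds IL-6, and its values in normal gland were 6.00, 5.03, 3.30, 7.92 and 5.94. C3TAg tumors had 2.26, 2.17, 2.18, 2.16 and 2.24, MMTV-Hras 2.65, 2.62, 2.33, 2.93 and 2.31, and MMTV-PymT ran from 2.18 through 2.31 to 2.68. All of these tumors were below every normal gland and below the filter level. The p53-/- tumors ran from 2.25 through 2.64 to 3.84, MMTV-C-Myc had 4.60, 3.09, 3.72 and 2.62, and MMTV-Wnt 2.69, 2.13, 3.88 and 2.67. Brca1-/-p53+/- (4.92, 6.72, 4.05, 4.71 and 3.26) and MMTV-H2N (3.79, 5.51, 5.44, 4.58 and 4.84) lay within the normal range apart from 1 tumor, Brca1-/-p53+/- replicate 5. Il6ra was 5.28-fold lower in tumors (−2.40 ± 0.39 SE, adjusted p = 4.15e-06), with 27 of 41 tumors below every normal gland, and lower in C3TAg than in the other 7 models (−1.18 ± 0.39 SE, adjusted p = 0.0204).

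Il6st, which encodes gp130, was 2.73-fold lower in tumors (−1.45 ± 0.37 SE, adjusted p = 0.00169). Normal glands were tightly grouped at 9.86, 10.07, 9.65, 9.72 and 10.01, and 34 of 41 tumors were below them all. The 4 tumors above were Brca1-/-p53+/- replicates 2, 3 and 4 (10.98, 10.26 and 10.80) and MMTV-Wnt replicate 3 (10.16), the 4 arrays with low epithelial or high fat markers. Il6st was 3.47-fold higher in Brca1-/-p53+/- than in the other 7 models (adjusted p = 0.00119), and the difference was 0.80 (adjusted p = 0.517) without those 4 arrays. Il6 was above 4 in MMTV-Wnt replicate 3 (6.87), Brca1-/-p53+/- replicate 5 (6.03), MMTV-C-Myc replicate 2 (5.83) and p53-/- replicate 6 (4.31), and its difference between tumors and normal gland did not pass (0.32, adjusted p = 0.628).

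**Figure D3:**
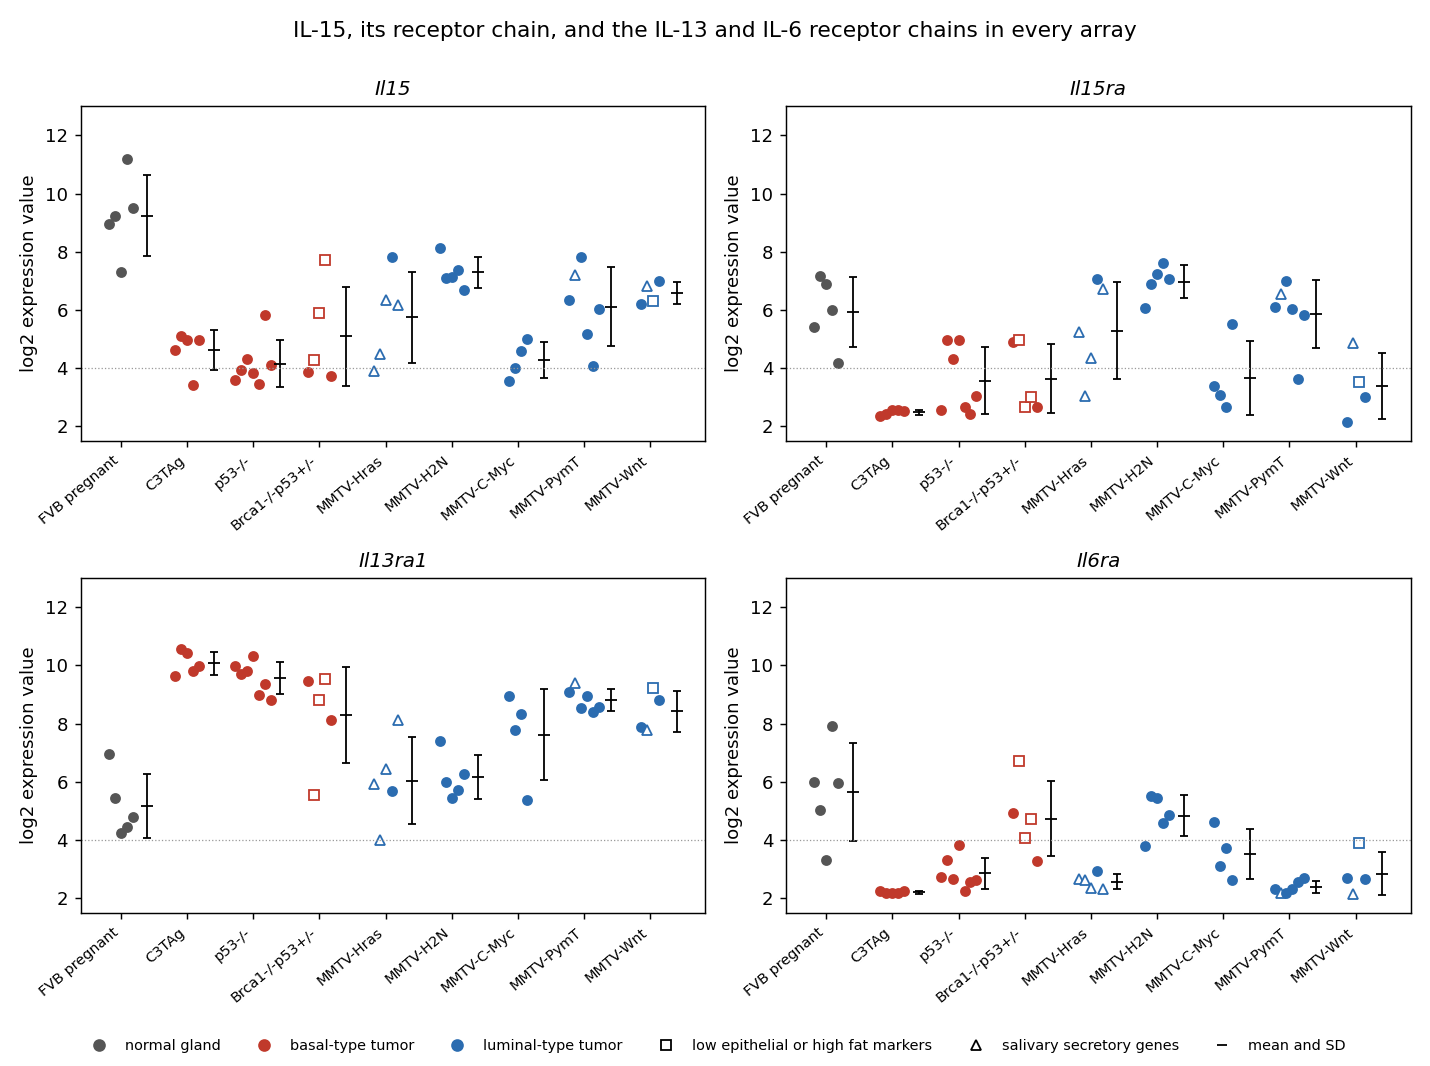
Log2 expression values (vertical axis) of Il15, Il15ra, Il13ra1 and Il6ra in each of the 46 arrays by group, with bars for mean and SD, and symbols as in the plot of the IL-1 family ligands. For Il15, 36 of 41 tumors lie below all 5 normal glands, and for Il13ra1, 31 of 41 lie above them.

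In the IL-12 family, Il23a, the specific subunit of IL-23, was high in single tumors of 3 models and at 2.37 to 2.59 in normal gland. It was 8.17, 7.13, 6.98 and 7.66 in p53-/- replicates 1, 5, 6 and 7, 6.47, 6.64 and 8.43 in MMTV-Hras replicates 1 to 3, and 7.82 and 5.33 in MMTV-C-Myc replicates 1 and 4. The other tumors were at 3.95 or less. Compared with normal gland it was higher in p53-/- (2.94 ± 0.87 SE, adjusted p = 0.00577), MMTV-Hras (2.83, adjusted p = 0.0208) and MMTV-C-Myc (2.59, adjusted p = 0.0425). The 3 high MMTV-Hras tumors all carried salivary secretory genes, and the 1 tumor left without those arrays, at 2.37, gave −0.06. MMTV-Hras replicate 5 and the salivary tumors of MMTV-PymT and MMTV-Wnt also carried these genes but had Il23a at 3.95 or less. Without MMTV-Hras replicate 1, 2 or 3 the difference was 2.52, 2.48 or 2.03 (adjusted p = 0.0548, 0.0656 and 0.106). The MMTV-C-Myc call was lost without its replicate 1 (1.66, adjusted p = 0.246) or 4 (2.48, adjusted p = 0.0842), without any 1 of the 5 normal glands (2.57 to 2.63, adjusted p = 0.0573 to 0.0656), after median centring (2.52, adjusted p = 0.0504) and without the 4 arrays of low epithelial or high fat markers (2.59, adjusted p = 0.0504). Il12b, the subunit shared by IL-12 and IL-23, was above 4 in 3 arrays, at most 5.12. Il10rb, a chain shared by the receptors of IL-10 and of interferon lambda, was between 9.03 and 9.51 in normal gland and higher in MMTV-Hras (1.33 ± 0.42 SE, adjusted p = 0.0143). That difference was 1.08 without MMTV-Hras replicate 5 (adjusted p = 0.0620) and 1.31 for the 1 tumor left without the salivary arrays (adjusted p = 0.264). Its lower level in MMTV-Wnt than in the other 7 models (−1.11 ± 0.35 SE, adjusted p = 0.0470) came with 1 low array, MMTV-Wnt replicate 1 at 6.00, against 9.80, 10.22 and 8.66, and was −0.22 (adjusted p = 0.758) without it. The call was lost in 35 of the 46 fits that left out 1 array. It was also lost after quantile normalization or median centring (−1.01 and −0.99, adjusted p = 0.0665 and 0.0778) and with the replicate number as a block (−1.08, adjusted p = 0.0597).

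The IL-17 family held the largest named difference between a model and the other 7. IL-17B, encoded by Il17b, is a ligand of the receptor chain IL-17RB. MMTV-C-Myc tumors had Il17b values of 10.50, 8.62, 11.40 and 9.12, against 6.74, 6.78, 4.82, 8.85 and 8.37 in normal gland. In p53-/- tumors the range was 2.57 through 2.59 to 3.00, in MMTV-Hras tumors the values were 2.74, 2.78, 2.66, 2.64 and 2.67, and in Brca1-/-p53+/- 4.79, 2.82, 2.58, 2.60 and 2.67. The p53-/- and MMTV-Hras tumors were all at the bottom of the scale, and no tumor of these 3 models reached the lowest normal gland. C3TAg had 6.32, 7.54, 2.59, 7.22 and 5.09, MMTV-H2N 6.73, 5.45, 6.39, 5.75 and 4.06, and MMTV-PymT 2.68 through 4.03 to 6.14. MMTV-Wnt tumors spread from 2.64 to 12.31, the highest value of any array, with 5.33, 12.31, 2.64 and 11.60. Il17b was 39.7-fold higher in MMTV-C-Myc than in the other 7 models (5.31 ± 0.91 SE, adjusted p = 0.000159). The low values of p53-/-, MMTV-Hras and Brca1-/-p53+/- are part of that difference. Against normal gland, Il17b was called higher in none of the 8 models (2.79 in MMTV-C-Myc, which did not pass) and lower in 4. It was lower than in the other models by 2.91 ± 0.72 SE (adjusted p = 0.00424) in p53-/- and by 2.93 (adjusted p = 0.00843) in MMTV-Hras. Without the 6 salivary arrays the MMTV-Hras tumor left, replicate 4 at 2.64, gave −2.78 (adjusted p = 0.481), a difference of about the same size.

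The lower Il17b of Brca1-/-p53+/- (−2.48, adjusted p = 0.0325) did not hold without its replicates 2, 3 or 4 (−2.41, −2.35 and −2.36, adjusted p = 0.0860, 0.0718 and 0.0853). It was −2.09 (adjusted p = 0.377) without the 4 arrays of low epithelial or high fat markers and −2.27 (adjusted p = 0.0535) without the salivary arrays. The higher Il17b of MMTV-Wnt (3.09, adjusted p = 0.0319) was 1.65 and 1.89 without replicates 2 and 4 (adjusted p = 0.314 for each), and 1.65 (adjusted p = 0.358) without the salivary arrays. The difference between all tumors and normal gland, −1.85 (adjusted p = 0.0666), was −2.04 (adjusted p = 0.0446) without them.

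The receptor chain Il17re, through which IL-17C acts on epithelium, was highest in MMTV-H2N. Its values there were 11.44, 12, 12.09, 11.93 and 11.92, above every other array, and normal glands had 7.80, 7.83, 7.39, 7.87 and 8.47. MMTV-PymT ran from 10.24 through 10.46 to 11.11 and C3TAg had 9.85, 10.49, 10.06, 9.38 and 8.84. MMTV-Hras had 9.20, 8.58, 9.07, 10.43 and 9.70, and MMTV-C-Myc 8.95, 8.56, 9.48 and 8.86. None of these 5 models overlapped the normal glands. The p53-/- tumors ran from 8.24 through 8.94 to 10.58. In Brca1-/-p53+/- (9.83, 8.75, 2.11, 2.97 and 10.14) and MMTV-Wnt (9.54, 8.05, 4.16 and 9.43), the 3 lowest values were those of the 3 tumors that lacked epithelial markers. Il17re was 7.92-fold higher in MMTV-H2N than in the other 7 models (2.99 ± 0.72 SE, adjusted p = 0.00204). With all arrays, its difference between tumors and normal gland did not pass (1.39, adjusted p = 0.115), with 35 of 41 tumors above every normal gland. Without the 4 arrays of low epithelial or high fat markers it was 1.95 ± 0.27 SE (adjusted p = 2.85e-07), and it was then called higher in all 8 models rather than in MMTV-H2N and MMTV-PymT alone. For Brca1-/-p53+/- that call rested on replicates 1 and 5 (9.83 and 10.14). The second Il17re probe set, with all arrays, gave 1.04 (adjusted p = 0.0282). In Brca1-/-p53+/-, the difference of −2.86 from the other models (adjusted p = 0.00555) was −1.69 without replicate 3, −1.91 without replicate 4 (adjusted p = 0.0733 and 0.0730) and 0.19 without the 4 arrays (adjusted p = 0.880).

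Of the other IL-17 receptors, Il17rb, the receptor of IL-17B, was above 4 in 3 tumors, MMTV-Wnt replicates 1 and 4 (7.24 and 7.09) and Brca1-/-p53+/- replicate 1 (6.15), and at 2.99 or less in the remaining 43 arrays. It was 4.79-fold higher in MMTV-Wnt than in the other 7 models (adjusted p = 0.00399), and on the log2 scale 1.44 and 1.49 without replicates 1 and 4 (adjusted p = 0.129 and 0.0997). The common chain Il17ra was higher than normal in C3TAg (1.11, adjusted p = 0.0139) and Brca1-/-p53+/- (1.10, adjusted p = 0.0227), and Il17rc was higher in C3TAg (1.04, adjusted p = 0.0227) and MMTV-H2N (1.02, adjusted p = 0.0340). None of these 4 calls held under every alternative. For Il17ra, C3TAg lost the call without its replicate 2 or 3 (0.90 and 0.94, adjusted p = 0.0599 and 0.0502), under quantile normalization and median centring (0.73 and 0.69, adjusted p = 0.100 and 0.126) and with its probe set of highest variance (0.40, adjusted p = 0.513). Brca1-/-p53+/- lost it without replicate 2, 3 or 4 (0.90, 0.98 and 0.96, adjusted p = 0.0694, 0.0652 and 0.0693), with that probe set (0.46, adjusted p = 0.489) and without the 4 arrays of low epithelial or high fat markers (0.19, adjusted p = 0.819). For Il17rc, C3TAg lost it without its replicate 2 or 3 or FVB pregnant replicate 1 (0.72, 0.89 and 0.89, adjusted p = 0.123, 0.0694 and 0.0696). MMTV-H2N lost it without its replicate 2, 3 or 4 or FVB pregnant replicate 1 or 3 (0.87 to 1.01, adjusted p = 0.0583 to 0.100), and both lost it under quantile normalization and median centring (0.62 to 0.76, adjusted p = 0.0971 to 0.160). Il17a, the T cell cytokine of the family, was above 4 in 3 tumors and reached 6.49 in MMTV-Hras replicate 1.

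Il34, which encodes a second ligand of the macrophage receptor CSF1R and no relative of the other interleukins, was near 2.2 in normal gland (2.14, 2.17, 2.18, 2.23 and 2.20). MMTV-Hras tumors had 3.66, 9.15, 9.46, 2.15 and 8.83. MMTV-Wnt had 2.18, 6.38, 6.13 and 2.24, and Brca1-/-p53+/- 2.19, 2.19, 6.60, 6.30 and 2.15. The high tumors were salivary arrays in MMTV-Hras, the 2 without epithelial markers in Brca1-/-p53+/-, and 1 of each kind in MMTV-Wnt. MMTV-PymT replicate 2, with salivary genes at 12.61, had an Il34 value of 2.19 within a range of 2.13 through 2.16 to 2.19 for its model. C3TAg (2.20, 2.19, 2.33, 2.20 and 2.21) and MMTV-H2N (2.24, 2.20, 2.22, 2.20 and 2.22) were at the normal level, p53-/- ran from 2.20 through 2.21 to 4.72, and MMTV-C-Myc had 2.40, 2.21, 3.46 and 2.14. Il34 was 13.8-fold higher in MMTV-Hras than in the other 7 models (3.78 ± 0.73 SE, adjusted p = 0.000245). Without the 6 salivary arrays the 1 tumor left gave −0.61 (adjusted p = 0.887). The part of salivary tissue in the MMTV-Hras values of Il34 and Il1rn was not tested.

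**Figure D4:**
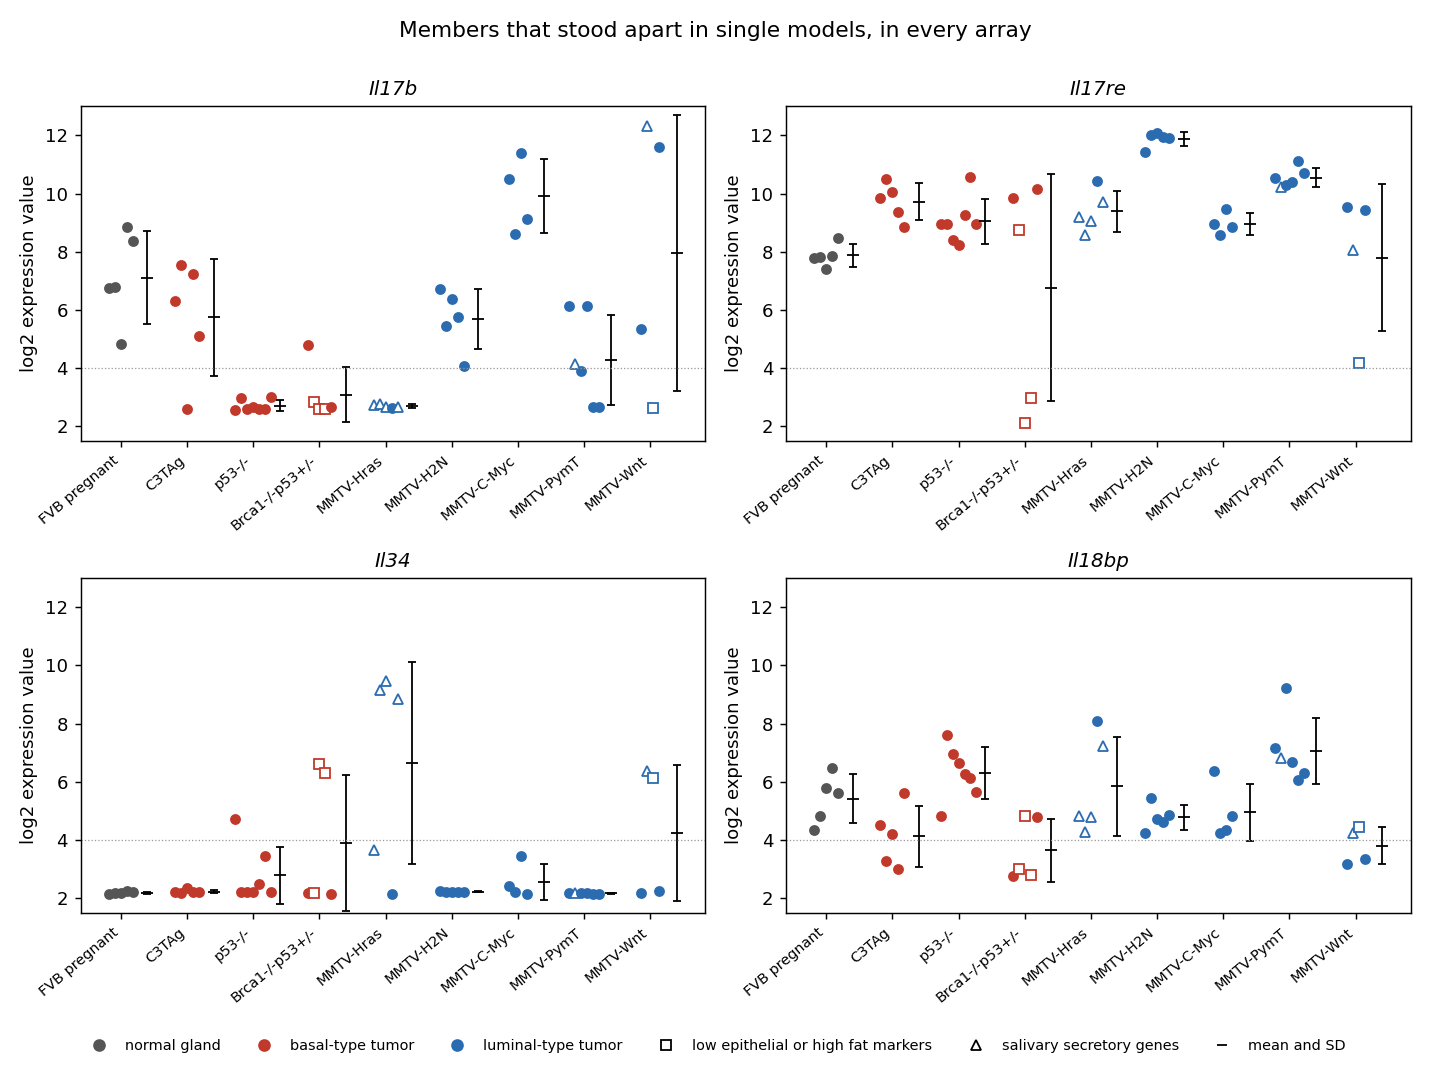
Log2 expression values (vertical axis) of Il17b, Il17re, Il34 and Il18bp in each of the 46 arrays by group, with bars for mean and SD, and symbols as in the plot of the IL-1 family ligands. MMTV-C-Myc stands at 8.62 and above for Il17b, MMTV-H2N at 11.44 and above for Il17re, and the 2 lowest Il17re values, 2.11 and 2.97, are open squares of Brca1-/-p53+/-.

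Counted against the other 7 models, p53-/- differed in 9 members (7 higher, against 10.6% of all genes, and 2 lower, against 5.7%). Brca1-/-p53+/- differed in 8 (5 higher and 3 lower, against 6.74% and 11.9%), MMTV-Hras in 8 (5 and 3, against 9.64% and 14.8%) and MMTV-H2N in 8 (4 and 4, against 16.1% and 9.09%). MMTV-PymT differed in 6 (2 higher and 4 lower, against 11% and 6.9%), C3TAg in 5 (3 and 2, against 19.5% and 9.43%), MMTV-Wnt in 3 (2 and 1, against 2.64% and 3.7%) and MMTV-C-Myc in 1, Il17b (higher, against 4.79%). The shares among the members lay on both sides of those among all genes.

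The 17 basal-type tumors were compared with the 24 luminal-type tumors to ask which members follow this division. With tumors as replicates, 9 members were higher in the basal type, against 16% of all genes, and 2 were lower, against 12%. The higher ones were the IL-1 axis of ligand, antagonist and receptor (Il1b, Il1rn and Il1r1) with Il18r1, the receptor chains Il13ra1, Il4ra, Il6st and Il7r, and the ligand Il7. The lower ones were Il15 and Il15ra. The median was 0.16 over the members and 0.06 over all genes. Tumors of a model share their transgene. Once the model entered as a random block, none of the 31 members passed, against 0.526% of all genes that did. At an unadjusted p under 0.05 there were 8 members, but the share of all genes at that level was not counted, so no difference is read from this. The values below therefore describe these 8 models, and the p with the block is given beside each.

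Il1r1 was 3.55-fold higher in basal-type tumors (1.83 ± 0.34 SE, adjusted p = 0.000153, with the block adjusted p = 0.106), and 6 of 17 basal-type tumors were above every luminal-type tumor. Il18r1 was 4.25-fold higher (2.09 ± 0.40 SE, adjusted p = 0.000225, with the block 0.134), and 8 of 17 were above every luminal-type tumor. Il13ra1 was 3.79-fold higher (1.92 ± 0.43 SE, adjusted p = 0.00119, with the block 0.118), and 11 of 17 were above every luminal-type tumor. These 3 genes kept their calls when p53-/- and Brca1-/-p53+/-, the models of other strains, were left out. Il1rn was 4.91-fold higher (2.29 ± 0.70 SE, adjusted p = 0.0124, with the block 0.271), although MMTV-Hras held the highest value, 11.63. Without the 6 salivary arrays the difference was 3.31. Its other probe sets gave 0.73 and 0.46 (adjusted p = 0.253 and 0.574). Il1b was 3.96-fold higher (1.99 ± 0.49 SE, adjusted p = 0.00251, with the block 0.208). In FVB arrays alone, where C3TAg stood for the basal type, Il1b differed by 0.21 (adjusted p = 0.807) and Il1rn by 2.47 (adjusted p = 0.113).

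Il6st was higher in the basal type by 1.17 ± 0.31 SE (adjusted p = 0.00442, with the block 0.201), and its second tested probe set gave 0.33 (adjusted p = 0.416). Il7r was higher by 1.03 ± 0.34 SE (adjusted p = 0.0209, with the block 0.373), or 0.80 without the 4 arrays of low epithelial or high fat markers (adjusted p = 0.0578), and its other probe set gave 0.24 (adjusted p = 0.470). Il4ra was higher by 0.97 ± 0.33 SE (adjusted p = 0.0265, with the block 0.426). The Il4ra call was lost without p53-/- replicate 1 (0.85, adjusted p = 0.0512) or Brca1-/-p53+/- replicate 4 (0.86, adjusted p = 0.0506), after quantile normalization (0.87, adjusted p = 0.0515) or median centring (0.88, adjusted p = 0.0520), and without the salivary arrays (0.90, adjusted p = 0.0689). Il7 was higher by 0.71 ± 0.22 SE (adjusted p = 0.0157, with the block 0.355), with 6 of 17 basal-type tumors above every luminal-type tumor. As no luminal-type tumor was above 4, Il7 entered the test through the basal-type tumors. In FVB arrays alone, Il6st, Il7r and Il4ra differed by 1.09, 0.87 and 0.32 (adjusted p = 0.0660, 0.184 and 0.631).

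Il15ra was 3.79-fold lower in the basal type (−1.92 ± 0.46 SE, adjusted p = 0.00212, with the block 0.161), and 14 of 24 luminal-type tumors were above every basal-type tumor, those of MMTV-H2N among them. Il15 was 2.80-fold lower in the basal type (−1.48 ± 0.39 SE, adjusted p = 0.00488, with the block 0.243), and −1.43 in FVB arrays alone (adjusted p = 0.0859). MMTV-C-Myc tumors, of the luminal type, had Il15 values as low as those of the basal type. Without MMTV-Wnt replicate 3, 4 members rather than 2 were lower in the basal type. Markers of other cells moved with this division. Of the lists, 5 of 7 pan-leukocyte, 2 of 13 macrophage, 2 of 5 neutrophil, 3 of 8 endothelial and 8 of 10 fibroblast and matrix markers were higher in basal-type tumors and none lower, while 6 of 8 salivary and 2 of 5 milk genes were lower. The summed level of the 7 pan-leukocyte markers was 63.0 at the median in C3TAg, 71.9 in p53-/- and 75.8 in Brca1-/-p53+/-, against 55.4 to 63.0 in the luminal-type models and 53.9 in normal gland. For the 10 fibroblast and matrix markers the ranges were 97.4 to 112.5 in C3TAg, 91.4 to 122.7 in p53-/- and 78.7 to 130.1 in Brca1-/-p53+/-, against 58.6 to 133.4 over the luminal-type models. The T cell markers Cd3g, Cd8a, Cd2 and Cd5 were all at 4 or less in every p53-/-, MMTV-H2N and MMTV-C-Myc tumor. The fifth marker of that list, Thy1, which stromal cells also express, ran from 7.39 through 9.14 to 10.51 in p53-/-, against 4.46 through 5.05 to 7.16 in normal gland. The part of these cells in the members' differences was not tested.

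**Figure D5:**
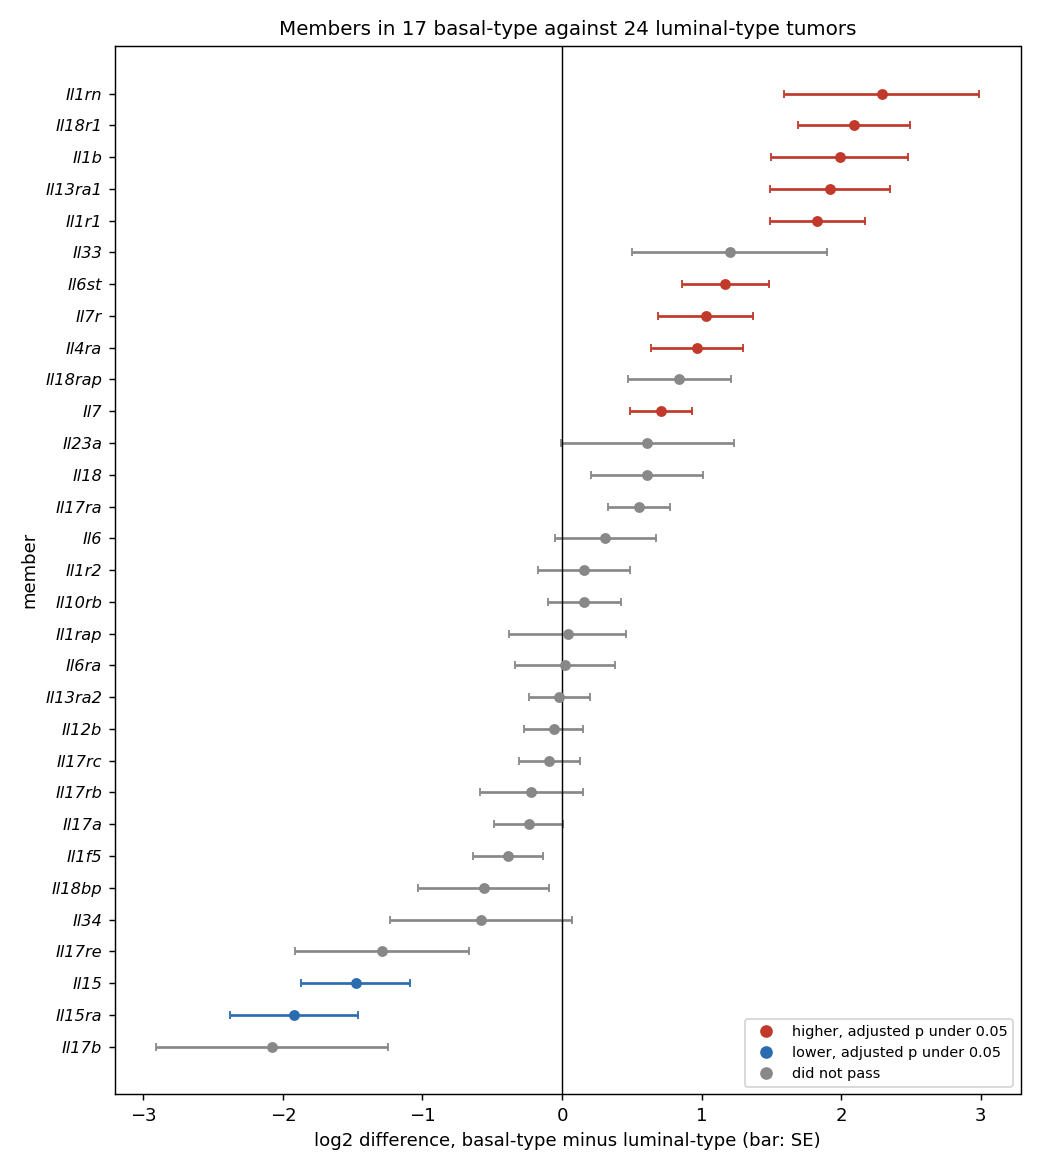
Log2 difference between 17 basal-type and 24 luminal-type tumors (horizontal axis, bars for SE) for the 31 tested members, red for higher and blue for lower at an adjusted p under 0.05 and grey for the rest. Differences run from −2.08 for Il17b, which did not pass, to 2.29 for Il1rn.

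The partner chains and signalling genes of the same pathways were read from lists, and their counts stand against 24.2% of all genes higher and 17.1% lower in tumors. Of 15 partner ligands and receptors without an Il symbol, 2 were higher and 2 lower in tumors than in normal gland. Osmr, the oncostatin M receptor that pairs with gp130, was higher by 2.18 ± 0.46 SE (adjusted p = 0.000190), and Lifr, the LIF receptor that pairs with the same chain, was lower (−1.77 ± 0.41 SE, adjusted p = 0.000618). Of 17 JAK, STAT and SOCS genes, 6 were higher and 3 lower. The 3 lower ones were Cish (−3.08, adjusted p = 2.24e-08), a target and inhibitor of STAT5, and Stat5a and Stat5b (−2.96 and −1.22, adjusted p = 2.17e-05 and 0.000698), the STAT proteins of prolactin and of several interleukins. Socs2 and Socs3, feedback inhibitors of cytokine receptors, were higher (1.90 and 1.62, adjusted p = 0.00109 and 0.0130). The list of IL-1 receptor signalling held 15 tested genes, among them NF-kB genes and Traf3ip2, which is the adaptor of the IL-17 receptors. Of these, 4 were higher and 1 lower, with Tab1 and Traf3ip2 at 2.64 and 2.62 (adjusted p = 1.37e-06 and 2.36e-07). Of 5 genes that process IL-1 family ligands, 1 was higher, Casp1, which cleaves IL-1 beta and IL-18 (1.73 ± 0.43 SE, adjusted p = 0.00131).

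Between tumor types, where 16% of all genes were higher and 12% lower in the basal type (0.526% either way with the block), 5 of the 15 partner genes were higher in the basal type and 1 lower, with Lif, a ligand of gp130, at 2.25 ± 0.46 SE (adjusted p = 0.000501, with the block 0.154). Of the IL-1 signalling list, 6 of 15 were higher and 1 lower, with the NF-kB subunits Relb and Nfkb2 at 2.52 and 1.70 (adjusted p = 0.000129 and 0.00254, with the block 0.110 and 0.202). The lower one was Traf3ip2 (−1.16, adjusted p = 0.000435, with the block 0.0659). Myd88, Irak1 and Traf6 of that list did not pass. Of the JAK, STAT and SOCS list, 3 of 17 were higher and 4 lower. Socs3 was higher (2.15, adjusted p = 0.00299, with the block 0.161), and Socs2, Cish, Stat5a and Stat5b were lower (−1.65, −1.43, −1.37 and −1.02, adjusted p = 0.0128, 0.00384, 0.0227 and 0.00277, with the block 0.204, 0.171, 0.332 and 0.196). Of the 5 processing genes, none was higher and 2 were lower, the inflammasome adaptor Pycard (−1.57, adjusted p = 0.00320, with the block 0.255) and Casp1 (−1.14, adjusted p = 0.0469, with the block 0.387). Il1b and the gene for the enzyme that cleaves it thus lay on opposite sides of this comparison.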

How the data were processed

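RNA of 41 tumors and 5 normal glands, each from 1 mouse, was hybridized by the authors to Affymetrix mouse genome arrays after one-cycle labelling and scanned with GCOS. The deposited values are log2 expression values, which the authors made with GC-RMA in Partek, removing probe sets that MAS5 called present or marginal in too few samples. Here 18586 probe sets were read, of which 16962 had 1 gene symbol, 569 several and 1055 none. Array medians ran from 6.48 to 7.48. The number of arrays limits the precision. limma (version 3.58.1, R 4.3.3) was fitted with 1 coefficient a group on 9318 genes past the filter (above 4 in 3 arrays), and Benjamini-Hochberg adjusted p-values under 0.05 were called. Models were weighted equally in comparisons with normal gland and with other models, and tumors equally in the class contrast. The class contrast was refitted with the model as a random block (statmod 1.5.0), and the script was tested on simulated data. Alternatives are given in the closing section. Members, lists and tests were chosen with earlier results of these data known. Genes were named by the largest differences among called members, up to 10 in each direction for the classes and 2 for a model. A protein table was not used here.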

Additional observations from a re-analysis of the deposited data

Results flagged for a closer look

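For the 12 members with the widest group means, the highest or lowest array of each group was compared with the others of its group by Dixon's ratio. Of 108 such groups, 13 held an array far from the rest, and chance flags about 1 in 20 groups. MMTV-Wnt replicate 3 was high for Il1b (9.93, others 4.55 to 5.30) and Il18 (9.39, others 6.08 to 6.32), and this array lacked epithelial markers. Il1b was also high in MMTV-Hras replicate 1 (7.33, others 4.49 to 4.80) and MMTV-C-Myc replicate 3 (5.34, others 4.80 to 4.83). Il1rn was high in MMTV-C-Myc replicate 1 (6.66, others 3.06 to 3.30), MMTV-PymT replicate 1 (3.64, others 2.95 to 3.03) and MMTV-H2N replicate 5 (2.97, others 2.50 to 2.56). Il17b was high in Brca1-/-p53+/- replicate 1 (4.79, others 2.58 to 2.82), and Il17re was low in MMTV-H2N replicate 1 (11.44, others 11.92 to 12.09). Il15 was high in p53-/- replicate 6 (5.84, others 3.45 to 4.31), Il15ra was low in MMTV-PymT replicate 5 (3.62, others 5.82 to 6.98), and Il18bp was high in MMTV-PymT replicate 3 (9.22, others 6.06 to 7.17). For Il34 the array was C3TAg replicate 3 (2.33, others 2.19 to 2.21), a difference at the bottom of the scale.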

How the results depend on the processing

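Of 50 named differences, all 50 kept direction and call without the filter on low values and with the probe set of highest variance. These alternatives could change little. Every named member had passed the filter, and only 12 of the 41 members had several probe sets. Other probe sets of Il1rn, Il6st and Il7r gave class differences that did not pass. Of the 50, 3 lost the call under median centring, 3 under quantile normalization, and 15 when at least 1 array was left out in turn. With FVB arrays only, 7 of 22 lost it, and all 11 class differences did once the model entered as a random block (members higher in the basal type 5 and 0, lower 1 and 0). Members higher and lower than normal gland were 3 and 7 in C3TAg after median centring, and those higher were 5 in p53-/- and 1 in MMTV-C-Myc. With 1 array left out, members higher ranged from 4 to 9 in p53-/-, 3 to 8 in Brca1-/-p53+/-, 1 to 3 in MMTV-C-Myc and 2 to 5 in MMTV-Wnt, and members lower from 2 to 5 in MMTV-H2N, 4 to 7 in MMTV-PymT and 2 to 4 in the basal type. The causes were not tested. Called genes went from 58.6% higher in tumors (2258 higher, 1594 lower) to 45.4% (1717 and 2064) under median centring, and from 57% higher in the basal type (1487 and 1122) to 45.8% (1252 and 1482), or 47.7% (1319 and 1447) under quantile normalization.

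2 alternatives were chosen after seeing the data. Leaving out the 4 arrays with low epithelial or high fat markers changed 6 of the 50 calls, Il18rap and Il17re in Brca1-/-p53+/- reversing to −0.11 and 0.19, and gave 5 members higher and 2 lower in that model. Of Brca1-/-p53+/-, replicates 1 and 5 alone were then left. Leaving out the 6 salivary arrays changed 11, Il34 and Il1rn in MMTV-Hras reversing to −0.61 and −2.20, and gave 1 higher and 1 lower in MMTV-Hras and 5 higher in MMTV-Wnt.

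Replicate numbers did not pair the arrays: over 166 same-numbered pairs the mean correlation of deviations was 0.014 (−0.332 to 0.447), and 11 of 46 arrays correlated best with their own number. With the number as a replicate block, 5 members were higher in p53-/- and 1 of the 50 named calls was lost (Il10rb in MMTV-Wnt, −1.08). Of the calls against normal gland, 3 of 13 were lost in p53-/-, 1 of 12 in Brca1-/-p53+/- and 1 of 7 in MMTV-Wnt, and 1 was gained in MMTV-H2N. Values near 2 to 4 are close to background and set the size of differences there.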
